A study of Mus musculus with 816 samples.

Results

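The 10 heat shock proteins and co-chaperones described here were followed through every condition of a mouse microglia series. Their genes, called the members below, are Hspa1a, Hspa1b, Hsph1, Hsp90aa1, Dnajb1, Dnaja1, Hspe1, Hspd1, Bag3 and Hspb1. They were chosen by name and not by a threshold on their values, from the 45581 genes listed for cultured cells and the 29858 listed for cells taken from mice. All 10 were present in both lists. Levels are CPM, a gene's reads scaled to the reads of its library, fold changes are on the log2(CPM + 1) scale, and "called" means an adjusted p under 0.05 with at least a 1.5-fold change in limma with Benjamini-Hochberg adjustment over all genes tested.

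The cultures were primary neonatal mouse microglia from a commercial supplier, given 1 or more agents in 96-well plates and lysed 4, 24 or 72 h later. They carried 3 source names, ending in Feb15, March15 and May16. These sources are called lots below, although no label says that they were separate cell lots. The comparisons used 783 cultures in 97 conditions, and 1 culture with conflicting dose labels was left out. There were 9 stimulated conditions at 4 h, 44 at 24 h and 42 at 72 h, with 3 to 18 cultures each and a median of 7. Untreated cultures numbered 40 at 24 h and 25 at 72 h, and no untreated cultures were labelled 4 h, so 4 h conditions were set against 24 h untreated cultures and against 4 h cultures given the chemokine CCL7. The mice were C57BL/6. In the first mouse experiment 4 female mice of 2 months received lipopolysaccharide (LPS) at 2 mg/kg and 4 received saline (PBS) 4 h before CD11b-positive brain cells were isolated. In the second, cells came from male mice labelled naive, 11 of 2 months and 13 of 22 months, in 2 library batches, although the columns of the first batch are named vehicle.

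Molecular chaperones bind unfolded protein and help it fold, or hand it to degradation. HSP70 proteins (Hspa1a and Hspa1b are the stress-inducible pair) work in cycles with J-domain partners such as Dnajb1 and Dnaja1, with nucleotide exchange factors such as Hsph1 and Bag3, and with HSP90. Hspd1 and Hspe1 form the chaperonin of mitochondria, and Hspb1 is a small heat shock protein that holds clients without ATP. The transcription factor HSF1 drives many of these genes through heat shock elements, which are inverted repeats of the letters GAA and TTC. In microglia, as in other macrophages, inflammatory signals can change the levels of several of these genes.

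The promoter letters of the members are shown because a heat shock element is what genes of this class are best known to share. In the 250 bases before each RefSeq transcription start (GRCm38.p6), the letters GAANNTTC or TTCNNGAA were searched on both strands. Of all 32851 such windows 12.8% held at least one of these motifs, 6.69% the first and 7.17% the second. Of the 9 members with a window, 7 had a match in at least 1 window, against 14.5% of all 27025 genes. Dnaja1 and Hspd1 also had windows without a match. The capitals mark the matched letters, and each line is on the gene's own strand, 5′ to 3′.
Hspa1a, chr17:34972243-34972271, minus strand: cgaaactgctgGAAGATTCctggccccaa
Hspa1b, chr17:34959325-34959353, minus strand: cgaaactgctgGAAGATTCctggccccaa
Hsph1, chr5:149636352-149636380, minus strand: gggtagaatctTTCTCGAAggctcgagaa
Dnaja1, chr4:40722333-40722361, plus strand: aaaagcctctaGAAAATTCtacgaggctc
Hspe1, chr1:55088053-55088081, plus strand: ggtccgTTCTAGAACCTTCCGGAAggccc
Hspd1, chr1:55088054-55088082, minus strand: ggggccTTCCGGAAGGTTCTAGAAcggac
Hspb1, chr5:135887791-135887819, plus strand: cttcaacaagaGAAGTTTCcagatggggg
The window of Hspb1 held a second match, in chr5:135887811-135887839 and not printed. Hspe1 and Hspd1 lie head to head on chromosome 1 and share one site, read on opposite strands. It was the longest match, with alternating units over 18 bases. At least 3 alternating units in a row occurred in 0.47% of all windows. The windows of Hspa1a and Hspa1b were 98.8% identical (247 of 250 bases) and held the same matched letters. Dnajb1 and Bag3 had no match in this window, and Hsp90aa1 had no window. A match is a description of letters and not a measured binding site.

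The estimated depth was 1.00 to 38.2 M mapped reads per culture (median 4.67), 5.05 to 7.78 M in the LPS experiment and 2.36 to 5.68 M in the aging experiment. It was read from the steps between low values, so it is approximate. Defining markers of brain microglia were low in the cultures: Tmem119 had a median of 14.6 CPM in 24 h untreated cultures against 4630 CPM in 2-month mice, and Sall1 0.411 against 190 CPM, whereas the macrophage receptor gene Csf1r was at 3927 against 22008 CPM. In bulk samples, fewer cells with a given RNA and less of that RNA per cell cannot be told apart. No label says that the cultures of a condition were prepared separately, so p-values measure the spread between these samples, which may be technical. Hspa1a and Hspa1b are near-identical copies, and several members have processed pseudogenes, so the split of reads between them is uncertain.

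Before any stimulus the members differed in how far their cultures spread. In the 40 untreated 24 h cultures Hsp90aa1 was at 114.4 ± 38.8 CPM (SD), Hspe1 at 102.2 ± 30.8, Hsph1 at 86.9 ± 52.0, Dnaja1 at 58.7 ± 20.7 and Hspd1 at 55.9 ± 18.4. Bag3 was at 26 ± 13.5, Dnajb1 at 16.8 ± 6.59 and Hspb1 at 11.5 ± 16.2. The inducible HSP70 pair was at or near 0 in many cultures, with Hspa1a at 4.47 ± 4.35 CPM (lowest 0, median 3.24, highest 14.4) and Hspa1b at 3.93 ± 4.46 (lowest 0, median 2.97, highest 17.7). CPM is not divided by transcript length, so no order of levels between genes is read from these values.

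Much of that spread lay between culture plates, as the plot of untreated cultures by plate shows. The share of the log2 variance found between the 6 plates with 24 h untreated cultures was 67.2% for Hsp90aa1, 56.5% for Hspa1b and 48.5% for Hspd1, and only 11.2% for Dnajb1. Mean Hsp90aa1 was 68.5 ± 7.62 CPM on plate G (n = 4) and 172 ± 39.99 on plate A (n = 6). Mean Hspa1a was 1.26 ± 2.29 CPM on plate H (n = 8) and 10.3 ± 4.62 on plate A (n = 6). Wells at the plate edge or corner had Hsph1 at 130.3 ± 49.5 CPM (n = 10) against 72.4 ± 44.8 in the other untreated 24 h wells (n = 30). Where a call of a member named below was lost with plate in the fit, this is said. At 72 h the small heat shock gene Hspb1 went from 2.30 ± 4.08 CPM on plate F (n = 10) to 81.4 ± 107 on plate J (n = 5).

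**Figure D1:**
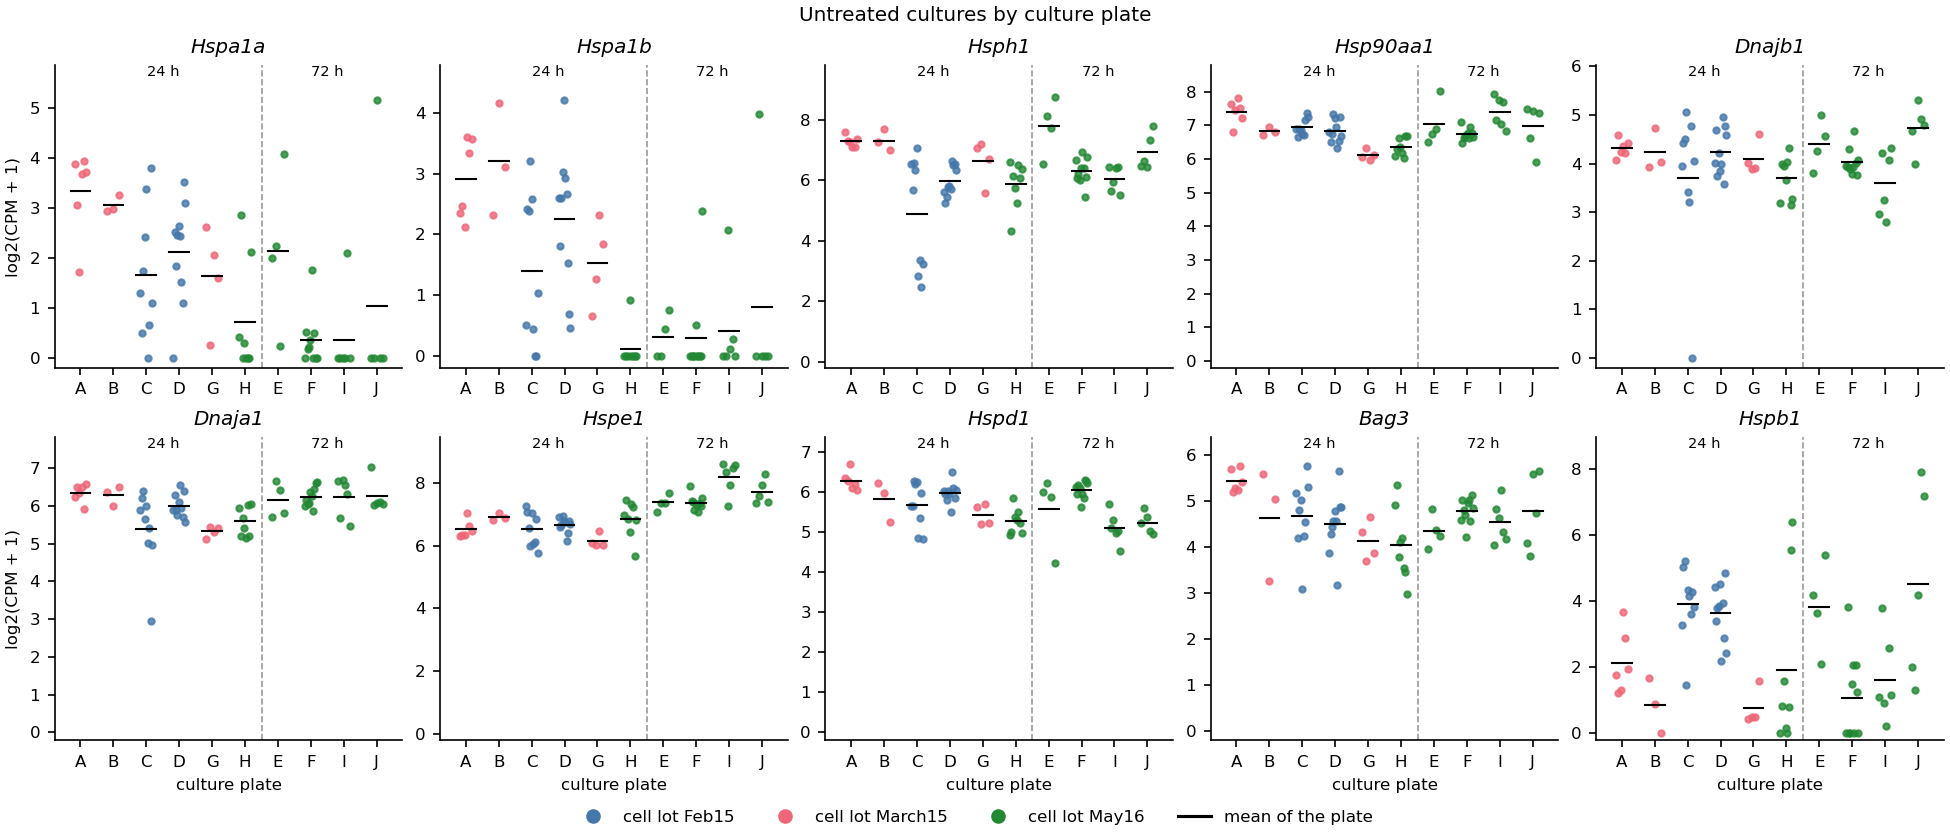
Level of each member, as log2(CPM + 1), in every untreated culture by culture plate, coloured by source name (called lot), with the plate mean as a line and 24 h plates left of the dashed line. Plate means of Hsp90aa1 go from 68.5 CPM on plate G to 172 CPM on plate A, and Hspa1b is at or near 0 in most cultures of plate H.

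Across all conditions the calls were spread unevenly over the members. At 24 h, 37 of 440 pairs of a member and a condition were called higher and 8 lower, against 6.09% of all gene and condition pairs called (2.1% higher, 3.99% lower). With plate in the fit, 25 of the higher and 3 of the lower calls were also made, and 6% of all pairs were called. At 72 h, 16 of 420 pairs were higher and 16 lower, of which 16 and 15 were also made with plate, against a background of 8.33% (3.82% higher, 4.51% lower, and 9.6% in all with plate). At 4 h against 24 h untreated, 12 of 90 were higher and 16 lower, 12 and 8 of them also with plate, against 14% (3.34% higher, 10.6% lower, and 15% in all with plate). At least 1 member was called in 21 of 44 conditions at 24 h, 18 of 42 at 72 h and 6 of 9 at 4 h. A member was called both with and without plate in 15, 18 and 6 of these. The like share for other gene sets of this size was not computed. All conditions of a time share the same untreated cultures, so these counts are not independent of each other.

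**Figure D2:**
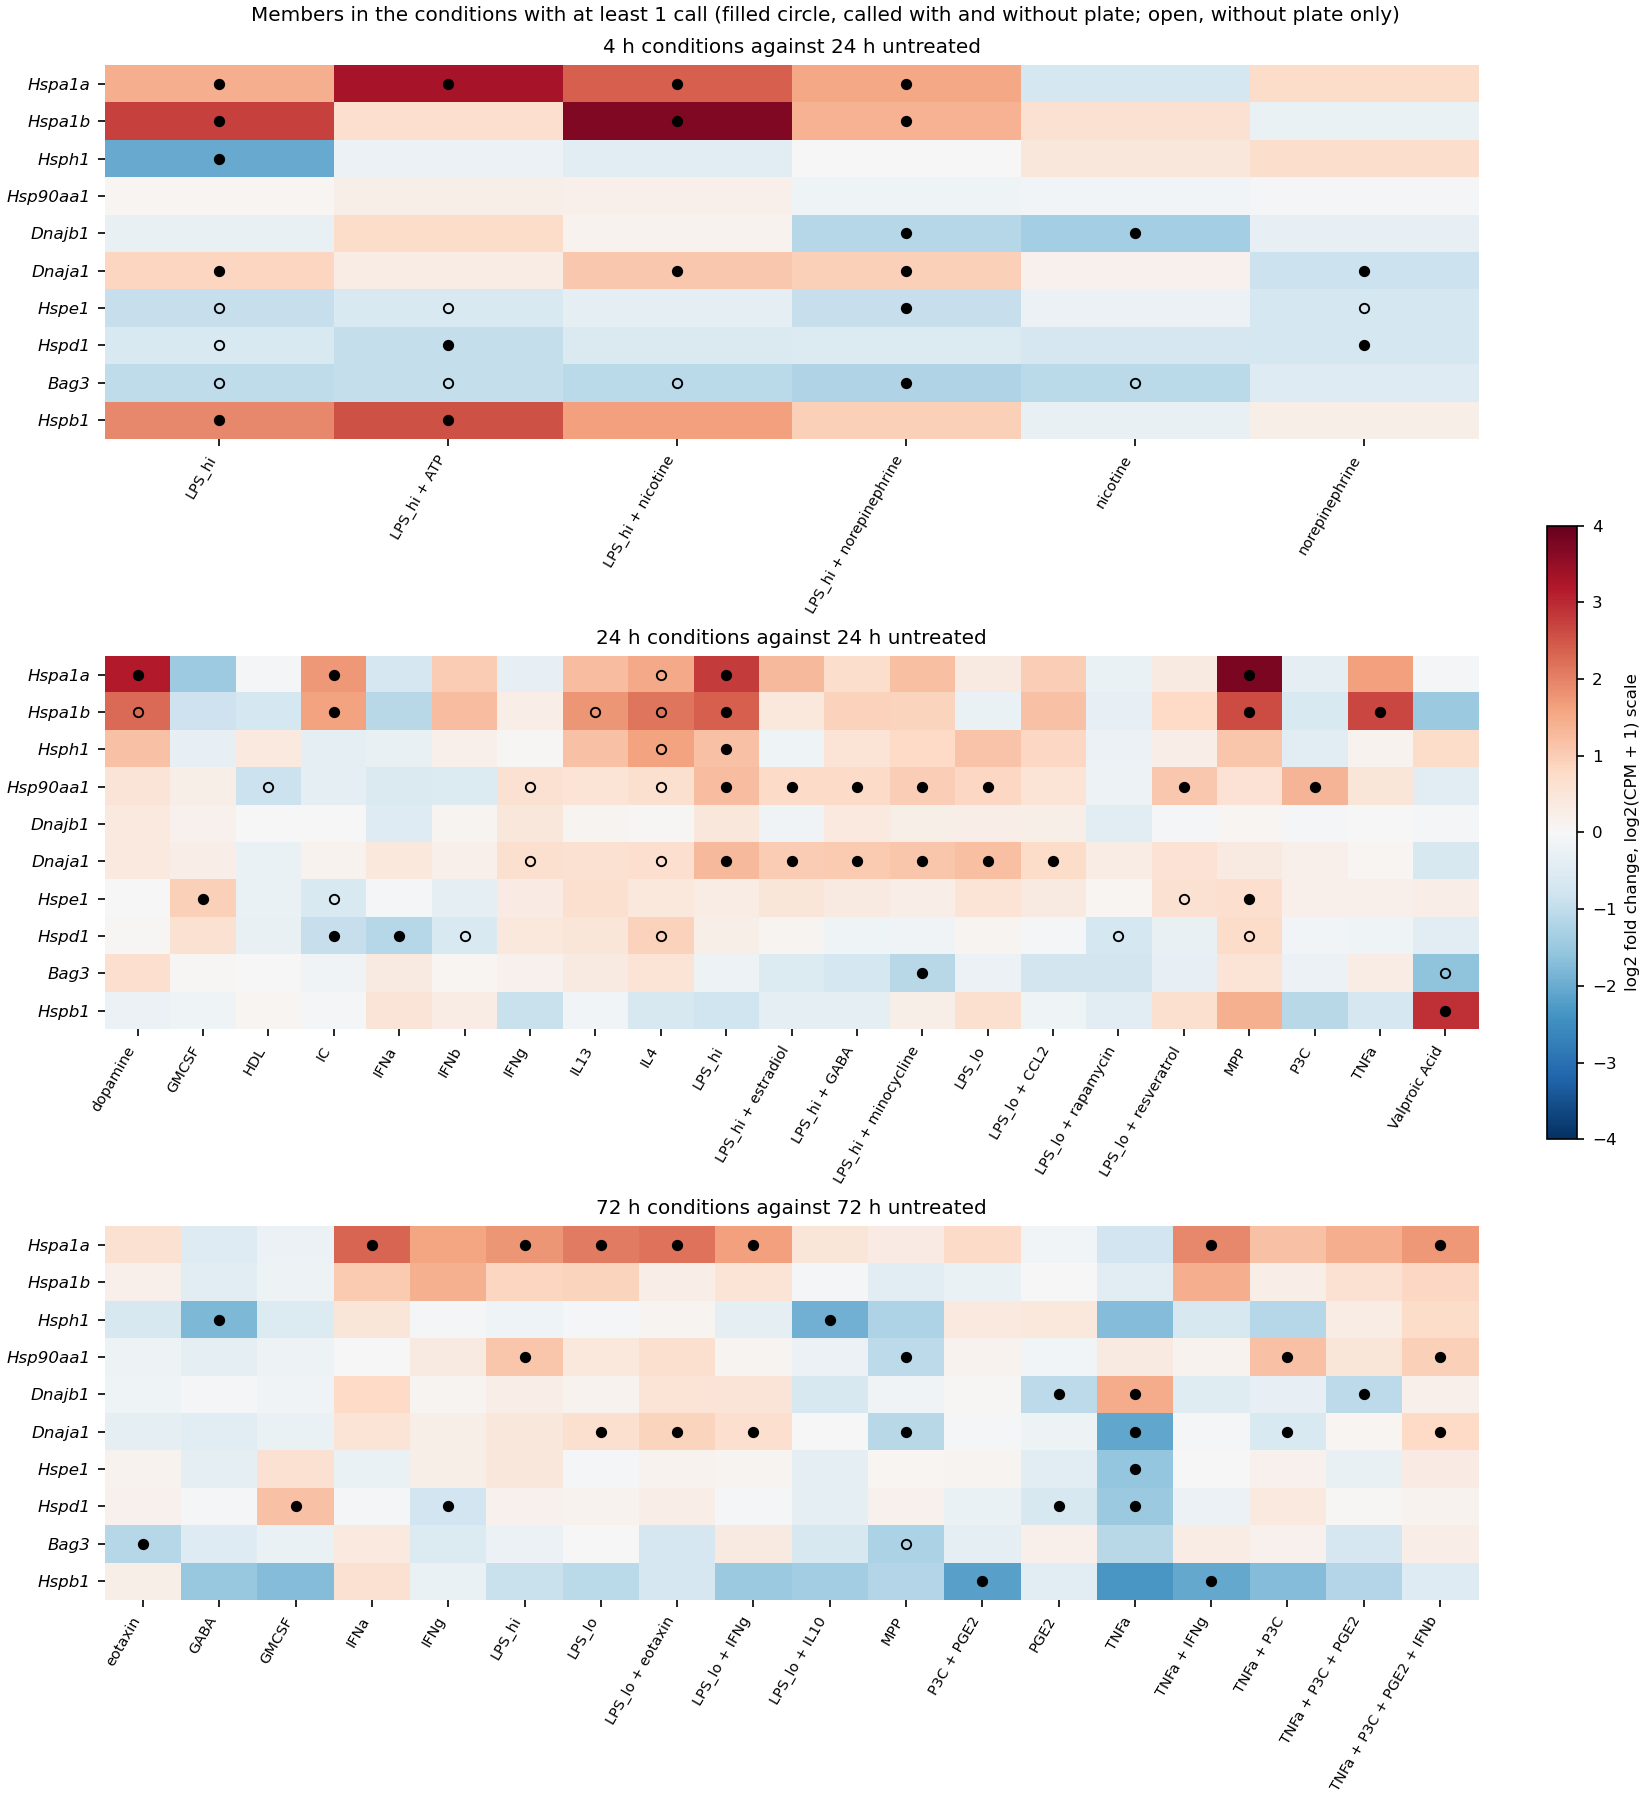
Log2 fold change of each member against untreated cultures in the conditions with at least 1 call, by time. Filled circles mark calls made with and without plate in the fit, open circles calls made only without it. The darkest cells are in the Hspa1a and Hspa1b rows, and at 24 h every filled circle of Hsp90aa1 and Dnaja1 is on a red cell.

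Hspa1a, the inducible HSP70, was highest at 24 h after MPP (1-methyl-4-phenylpyridinium, an inhibitor of mitochondrial complex I, at 100 µM), dopamine (100 µM) and LPS_hi (LPS at 0.0001 µg/µl). The 8 MPP cultures were at 61.0 ± 32.5 CPM (lowest 16.8, median 77.8, highest 92.5), and none overlapped the 40 untreated cultures (highest 14.4). This was a log2 fold change of 3.77 (SE 0.53, adjusted p = 1.45e-09), and 2.89 with plate in the fit (adjusted p = 1.74e-06), where 7% of all genes were called. On each of the 3 plates with MPP the mean was above the untreated mean, by 3.00 on plate A, 1.46 on plate B and 4.88 on plate C (log2).

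Dopamine gave a split response. The 9 cultures had Hspa1a at 85.4 ± 114.8 CPM (lowest 7.38, median 17.2, highest 318), and the high values were those of 1 plate. On plate C the mean was 229.6 ± 76.6 CPM against 3.61 in untreated wells, whereas plate A had 11.8 ± 5.01 against 10.3 and plate B 14.8 ± 5.63 against 7.32. The log2 fold change was 3.18 (SE 0.51, adjusted p = 1.20e-06), with 2.40 when plate was in the fit (adjusted p = 2.74e-04). Only 2% of genes were called. Plate C held cells of lot Feb15 and plates A and B of lot March15, so lot and plate cannot be told apart here.

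LPS_hi raised both inducible HSP70 genes at 24 h. Hspa1a was at 37.4 ± 26.6 CPM (n = 18, lowest 2.00, median 39.3, highest 82.6), with 16 of 18 cultures above the untreated median and the low end overlapping it. The log2 fold change was 2.78 (SE 0.39, adjusted p = 3.80e-11), and on the 6 plates it went from 0.99 on plate D to 3.91 on plate G. Hspa1b was at 34.9 ± 33.5 CPM (lowest 0, median 37.3, highest 108.3), a log2 fold change of 2.38 (SE 0.38, adjusted p = 8.35e-09). Its values within plates went from 0.17 on plate D to 3.36 on plate G. With LPS_hi 26.8% of all genes tested were called, and 5 of the 10 members were called, all higher: this pair, Hsph1, Hsp90aa1 and Dnaja1. Csf1r was lower in the same cultures, with a median of 881 CPM, and its part in these values was not tested.

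Adding a second agent to LPS_hi came with lower mean Hspa1a that did not pass the test. It was 7.25 ± 4.91 CPM with GABA (n = 8), 9.69 ± 5.26 with estradiol (n = 7) and 11.2 ± 9.002 with minocycline (n = 7). The log2 differences from LPS_hi alone were -2.07 (adjusted p = 0.0677), -1.47 (adjusted p = 0.412) and -1.56 (adjusted p = 0.410). With plate in the fit the first was -1.06. Against untreated cultures none of these mixes was called for Hspa1a, but with plate in the fit all were, at 1.42 with GABA (adjusted p = 0.0222), 1.93 with estradiol (adjusted p = 0.00202) and 2.00 with minocycline (adjusted p = 0.00122).

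With TNFa Hspa1b was called and Hspa1a was not. Tumour necrosis factor (TNFa, 0.000004 µg/µl) gave 27.8 ± 20.98 CPM at 24 h (n = 7, median 21, highest 59.7), a log2 fold change of 2.68 (SE 0.55, adjusted p = 1.19e-04) and 1.76 with plate (adjusted p = 0.00453). All 7 cultures were above the untreated median, and the difference was 2.03, 2.51 and 1.79 on plates A, B and C. TNFa called 3.93% of genes. The viral RNA mimic poly(I:C), labelled IC, gave smaller changes of both genes, 1.73 for Hspa1a (adjusted p = 0.0131) and 1.61 for Hspa1b (adjusted p = 0.0191), where 12.2% of genes were called. A difference between Hspa1a and Hspa1b was not tested, and reads may be split between the copies.

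The calls with interleukin 4 (IL4) turned on the plate term. Without plate 6 members were called higher at 24 h (n = 11, 4.52% of genes called), among them Hsph1 at 214.5 ± 73.9 CPM with a log2 fold change of 1.61 (adjusted p = 0.00256) and Hspd1 at 102.5 ± 14.7 CPM with 0.93 (adjusted p = 1.36e-04). With plate in the fit none was called, where 1.77% of genes were, and these values were 0.98 (adjusted p = 0.149) and 0.54 (adjusted p = 0.0474).

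At 72 h Hspa1a was called in 7 conditions, all higher and all also with plate. The untreated cultures were mostly at 0 (2.58 ± 7.44 CPM, median 0, highest 34.7). Interferon alpha gave 15.8 ± 19.6 CPM (n = 7, lowest 0.432, median 4.97, highest 47.2), a log2 fold change of 2.33 (SE 0.59, adjusted p = 0.00201), where 9.28% of genes were called. LPS_lo (0.00001 µg/µl) gave 9.13 ± 7.92 CPM (n = 11), with 2.08 (SE 0.50, adjusted p = 6.52e-04), and LPS_hi gave 9.64 ± 10.7 CPM (n = 13, lowest 0, median 8.96, highest 38.1), with 1.77 (SE 0.47, adjusted p = 0.00152). The other 4 were LPS_lo with eotaxin at 2.17, TNFa with IFNg at 1.91, the mix of TNFa, P3C, PGE2 and IFNb at 1.75 and LPS_lo with IFNg at 1.64. Each of these groups overlapped the untreated cultures. Hspa1b was called in no condition at 72 h, and in 3 with plate in the fit.

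Hsph1, an HSP110 that exchanges nucleotide on HSP70, moved in opposite directions at 4 and 24 h of LPS_hi. At 24 h it was at 170.9 ± 69.7 CPM (n = 18, lowest 22.3, median 173.6, highest 294.8) against an untreated median of 85.3, with 16 of 18 cultures above that median. The log2 fold change was 1.18 (SE 0.33, adjusted p = 0.00178) and 0.74 with plate (adjusted p = 0.0289), and within plates it went from -0.35 on plate C to 1.74 on plate D. At 4 h it was at 33.4 ± 31.7 CPM (n = 7, lowest 0, median 26.9, highest 75.7), below the untreated median in 7 of 7 cultures, with a log2 fold change of -2.02 (SE 0.47, adjusted p = 1.67e-04). The difference between the times was not tested. At 72 h Hsph1 was called lower with GABA, at 33.6 ± 24.2 CPM (n = 8, -1.78, adjusted p = 0.00511), and with LPS_lo plus IL10, at 38.8 ± 31.1 CPM (n = 5, -1.91, adjusted p = 0.0134). Neither call held when the recorded pool of each culture was in the fit. With 1 of the 5 LPS_lo plus IL10 cultures left out at a time, that call was made in 3 of 5 fits (log2 -2.32 to -1.28, highest adjusted p = 0.290).

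Hsp90aa1, the inducible cytosolic HSP90, rose with bacterial agonists. P3C (Pam3Cys-Ser-(Lys)4, a TLR2 agonist, at 0.001 µg/µl) gave 307.4 ± 152.9 CPM at 24 h (n = 6, lowest 146.7, median 266.4, highest 557.7), a log2 fold change of 1.35 (SE 0.24, adjusted p = 9.73e-07), with 1.65 on plate C and 1.54 on plate G. LPS_hi gave 269.9 ± 79.3 CPM (n = 18, median 248, highest 436), a log2 fold change of 1.25 (SE 0.16, adjusted p = 2.25e-13). All 18 were above the untreated median, and the difference was 0.85 to 1.71 on the 6 plates. It was also called higher with LPS_lo (0.84), LPS_lo with resveratrol (1.08), and LPS_hi with minocycline (0.98), estradiol (0.77) and GABA (0.76), in each case with and without plate.

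The HSP90 gene stayed higher at 72 h of LPS_hi, at 305.3 ± 145 CPM (n = 13, lowest 72.9, median 254.6, highest 592.2) against 134.1 ± 51.3 untreated (n = 25, lowest 59.7, median 113.4, highest 259.6). The log2 fold change was 1.10 (SE 0.19, adjusted p = 2.27e-07), with 22.3% of genes called, and it was 0.35 on plate I and 1.85 on plate J. TNFa with P3C gave 301.3 ± 112.8 CPM (n = 7), with 1.18 (SE 0.24, adjusted p = 1.91e-05). At 72 h MPP went the other way, to 63.4 ± 21.2 CPM (n = 6) with -1.03 (adjusted p = 0.00196), a call that was lost with pool in the fit.

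Dnaja1, a J-domain partner of HSP70, followed LPS at 24 h. LPS_hi gave 143.2 ± 48.6 CPM (n = 18, lowest 59.6, median 154.1, highest 220.2), a log2 fold change of 1.30 (SE 0.16, adjusted p = 2.30e-14). All 18 cultures were above the untreated median. Within the 6 plates the difference was 0.54 to 1.26, so the value over all cultures lay above that of each plate. LPS_lo gave 128.5 ± 27.2 CPM (n = 7, lowest 94.8, median 119.3, highest 172.8), with no overlap with the untreated cultures and a log2 fold change of 1.20 (SE 0.23, adjusted p = 3.46e-06). LPS_hi with minocycline, GABA or estradiol gave 1.10, 1.05 and 1.02, and LPS_lo with CCL2 gave 0.73, all called in both fits. At 72 h it was called higher with LPS_lo (0.63), LPS_lo with eotaxin (0.88), LPS_lo with IFNg (0.67) and the mix of TNFa, P3C, PGE2 and IFNb (0.80). MPP gave 35.9 ± 15.6 CPM at 72 h against 76.5 ± 20.6 untreated, a log2 fold change of -1.12 (SE 0.25, adjusted p = 6.46e-04) that was lost with pool in the fit. At 4 h it was higher with LPS_hi and nicotine, at 121.8 ± 46.5 CPM (n = 8) with 1.08, with LPS_hi and norepinephrine (0.95) and with LPS_hi (0.86), and lower with norepinephrine, at 38 ± 28.2 CPM (n = 7) with -0.86, the last lost with pool in the fit.

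Dnajb1, the J-domain partner most often named with the heat shock response, was called in none of the 44 conditions at 24 h. Its largest mean there was also with LPS_hi, but it did not pass. At 4 h it was called lower with nicotine (1000 µM), at 9.43 ± 7.88 CPM (n = 8) with -1.36 (SE 0.33, adjusted p = 0.00397), and with LPS_hi plus norepinephrine, at 8.30 ± 6.47 CPM (n = 8) with -1.14 (SE 0.33, adjusted p = 0.00333), the latter lost with pool in the fit. At 72 h PGE2 gave -1.04 (adjusted p = 0.0316) and TNFa with P3C and PGE2 gave -1.03 (adjusted p = 0.0404). Both overlapped the untreated cultures and were lost with pool in the fit.

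Of the mitochondrial chaperonin subunits only Hspd1 was called with interferons, and a growth factor called Hspe1 at 24 h and Hspd1 at 72 h. Hspd1 was lower with interferon alpha (0.0008 µg/µl) at 24 h, at 24.2 ± 6.12 CPM (n = 8, lowest 17.3, median 22.3, highest 35.4), below the untreated median of 57.1 in 8 of 8 cultures. The log2 fold change was -1.13 (SE 0.22, adjusted p = 7.28e-06), and it was -1.27 on plate D and -0.75 on plate H, where 14.3% of genes were called. IC gave 29.1 ± 9.49 CPM (n = 8), with -0.91 (SE 0.22, adjusted p = 6.12e-04). GMCSF, a macrophage growth factor (0.000005 µg/µl), raised Hspd1 at 72 h to 107.6 ± 11.4 CPM (n = 7, lowest 90.4, median 108.9, highest 121.3), with no overlap with the 25 untreated cultures, whose highest value was 78.2. That was a log2 fold change of 1.16 (SE 0.24, adjusted p = 1.24e-04) and 1.44 with plate (adjusted p = 6.37e-09), where 5.4% of genes were called. At 72 h Hspd1 was lower with IFNg, at 32.4 ± 18.9 CPM (n = 6) with -0.76 (adjusted p = 0.0233), and with PGE2, at 39.4 ± 23.7 CPM (n = 8) with -0.65 (adjusted p = 0.0415).

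Hspe1 was called higher with GMCSF at 24 h, at 198.4 ± 76.2 CPM (n = 8, lowest 138.5, median 174.9, highest 380.9), with 0.95 (SE 0.21, adjusted p = 9.92e-04) and 0.73 and 0.88 on plates D and H. Of all genes 2.84% were called in that comparison. MPP gave 0.68 (adjusted p = 0.0199), which was lost with pool in the fit. Of its 4 lower calls at 4 h, 1 was also made with plate, that of LPS_hi with norepinephrine at 63.6 ± 31.7 CPM (n = 8, -0.93, adjusted p = 9.28e-05), and it was lost with pool. The other 3 were those of LPS_hi (-0.92), norepinephrine (-0.71) and LPS_hi with ATP (-0.61). In untreated cultures Hspe1 was at 211.2 ± 79.4 CPM at 72 h against 102.2 at 24 h, a log2 difference of 1.02 (adjusted p = 2.17e-11) that was 0.16 with plate in the fit (adjusted p = 0.977). No plate held untreated cultures of both times, so time and plate cannot be told apart. The same comparison called the inducible HSP70 pair lower at 72 h, Hspa1a at -1.16 and Hspa1b at -1.31, and both were lost with plate. All untreated 72 h cultures were of lot May16, as were 8 of the 40 at 24 h. Within that lot Hspa1a was at 1.26 ± 2.29 CPM at 24 h and 2.58 ± 7.44 at 72 h. Hspa1b was at 0.110 ± 0.312 and 0.962 ± 3.07, and Hspe1 at 122.6 ± 41.3 and 211.2 ± 79.4. These differences within the lot were not tested.

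TNFa alone at 72 h had the most calls of any 72 h condition, but it rests on 3 cultures of 1 plate, at 1.97 to 2.36 M mapped reads, in which 29.5% of genes were called. Dnajb1 was at 25.2, 55.1 and 78.5 CPM (1.48, adjusted p = 0.0191), Dnaja1 at 2.53, 35.2 and 43.4 CPM (-2.07, adjusted p = 5.90e-08), Hspe1 at 17.7, 72.2 and 230.2 CPM (-1.56, adjusted p = 3.14e-05) and Hspd1 at 2.02, 32.2 and 51.6 CPM (-1.48, adjusted p = 1.73e-04). The 3 values of a gene lay far apart, and with 1 culture left out at a time Dnaja1, Hspe1 and Hspd1 were called in 2 of 3 fits and Dnajb1 in 1 of 3. Without cultures under 2 M mapped reads Hspe1 was at 0.18. Hspa1a, Hspa1b and Hspb1 were listed at 0 in all 3 cultures.

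Bag3, which links HSP70 to autophagy, was called lower in each of its 9 calls against untreated cultures. At 24 h LPS_hi with minocycline (20 µM) gave 10.6 ± 4.15 CPM (n = 7) against 26 ± 13.5, with -1.11 (SE 0.33, adjusted p = 0.00685) and -0.82 with plate. At 4 h LPS_hi with norepinephrine gave 10.48 ± 5.28 CPM (n = 8), with -1.20 (SE 0.32, adjusted p = 0.00123). Of the 5 calls at 4 h this was the one also made with plate. The others were LPS_hi with nicotine (-1.08), nicotine (-1.08), LPS_hi (-1.01) and LPS_hi with ATP (-0.95). Eotaxin at 72 h was called at -1.13 (adjusted p = 0.0400) although its mean of 27.1 ± 28.6 CPM was above the untreated 25.4 ± 9.27. The fit works on log values, and 3 of its 7 cultures were below the untreated median, the lowest at 0.277 CPM.

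Hspb1 was called higher at 24 h with Valproic Acid (1000 µM), a histone deacetylase inhibitor. It was at 56.2 ± 39.7 CPM (n = 6, lowest 21.5, median 45.1, highest 124.6) against an untreated median of 5.38 and a highest value of 83.8, with a log2 fold change of 2.92 (SE 0.74, adjusted p = 0.00304) and 3.73 with plate (adjusted p = 0.0393). Of its plates only G, with 2 of the 6 cultures, also held 24 h untreated cultures, and there the log2 difference was 4.97. In the order of 24 h conditions it stood above the next, MPP, by more than the pooled SD. None of the other 9 members had such a gap between neighbours in the 24 h order. At 4 h Hspb1 was higher with LPS_hi and ATP, at 47.9 ± 39.7 CPM (n = 6, 2.56, adjusted p = 0.00421), and with LPS_hi, at 58.1 ± 69.9 CPM (n = 7, lowest 2.50, median 13.3, highest 168.9, log2 fold change 1.92, adjusted p = 0.0188). At 72 h it was called lower with P3C and PGE2, at 0.131 ± 0.225 CPM (n = 7) with -2.18 (adjusted p = 0.0334), and with TNFa and IFNg, at 0.30 ± 0.508 CPM (n = 8) with -2.04 (adjusted p = 0.0275). Most of that difference lay on plate J, where the untreated cultures were high (-4.35 and -4.20, against -0.94 and -0.79 on plate F), and both calls were lost with pool in the fit.

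At 4 h LPS_hi could be set against cultures of the same time given CCL7, and 6 members were called, all also with plate, where 20.7% of genes were called. Hspa1b was higher at 29.2 ± 24.3 CPM (n = 7) against 3.98 ± 4.35 (n = 7), with 2.73 (SE 0.71, adjusted p = 0.00153), as were Dnaja1 (0.83, adjusted p = 0.0290) and Hsp90aa1 (0.82, adjusted p = 0.0315). Hsph1 was lower at 33.4 ± 31.7 against 104.6 ± 58.0 CPM (lowest 35.8, median 92.2, highest 225.6), with -2.50 (SE 0.62, adjusted p = 7.12e-04). Both chaperonin subunits were lower, Hspe1 at 57.4 ± 29.3 against 128.2 ± 66.2 CPM (-1.19, SE 0.29, adjusted p = 4.69e-04) and Hspd1 at 36.04 ± 12.5 against 68.4 ± 21.1 CPM (-0.93, SE 0.30, adjusted p = 0.0135). Over all 8 conditions set against CCL7, 11 of 80 pairs were higher and 10 lower, against a background of 8.37%. Hsp90aa1 was higher in 4 of the 8, with 1.39 for ATP alone, Hspd1 lower in 5 and Hspe1 lower in 4. So these calls were not particular to LPS_hi. CCL7 had the lowest 4 h mean log2 level of Hsp90aa1 and the highest of Hspd1. Against 24 h untreated cultures LPS_hi did not call Hsp90aa1, and its calls of Hspd1 and Hspe1 were lost with plate. When 1 culture at a time was left out of the LPS_hi comparison, 4 to 6 members were called, and Hspa1b, Hsph1 and Hspe1 were called each time, Hspd1 in 6 of 7 fits, Dnaja1 in 5 and Hsp90aa1 in 4.

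Combinations at 4 h gave the highest HSP70 levels of that time. With LPS_hi and ATP (n = 6) Hspa1a was at 40.9 ± 21.4 CPM (lowest 21.05, median 37.5, highest 78.3), with no overlap with the 24 h untreated cultures and a log2 fold change of 3.31 (SE 0.60, adjusted p = 1.36e-06), where 24.6% of genes were called. With LPS_hi and nicotine (n = 8) Hspa1b was at 44.0 ± 13.7 CPM (lowest 26.2, median 46.5, highest 58.3), also without overlap, with 3.70 (SE 0.52, adjusted p = 8.37e-11). In that mix Hspa1a was at 21.1 ± 9.12 CPM (2.38, adjusted p = 1.13e-04), with LPS_hi and norepinephrine at 17.7 ± 18.3 CPM (n = 8, 1.54, adjusted p = 0.0169) and with LPS_hi at 13.1 ± 11.6 CPM (n = 7, 1.45, adjusted p = 0.0302), the last lost with pool in the fit. Against nicotine alone this mix had higher Hspa1a (3.08, adjusted p = 1.85e-04), Hspa1b (3.10, adjusted p = 1.01e-04), Dnajb1 (1.48, adjusted p = 0.00661) and Dnaja1 (0.92, adjusted p = 0.0108). No member was called for LPS_hi with ATP or LPS_hi with nicotine against LPS_hi alone. With plate in the fit the ATP mix had 1 higher and 1 lower. Against ATP alone, where Hspa1a was at 21.1 ± 33.4 CPM (n = 5), the ATP mix had 0 members higher and 1 lower. With plate it had 1 higher and 1 lower. Against LPS_hi alone, LPS_hi with norepinephrine had higher Hsph1, at 83.8 ± 75.1 CPM (n = 8, median 53.1), with 2.04 (SE 0.60, adjusted p = 0.0440). Over all combinations tested against 1 of their agents, 6 of 230 pairs were higher and 1 lower, against 2.78%.

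**Figure D3:**
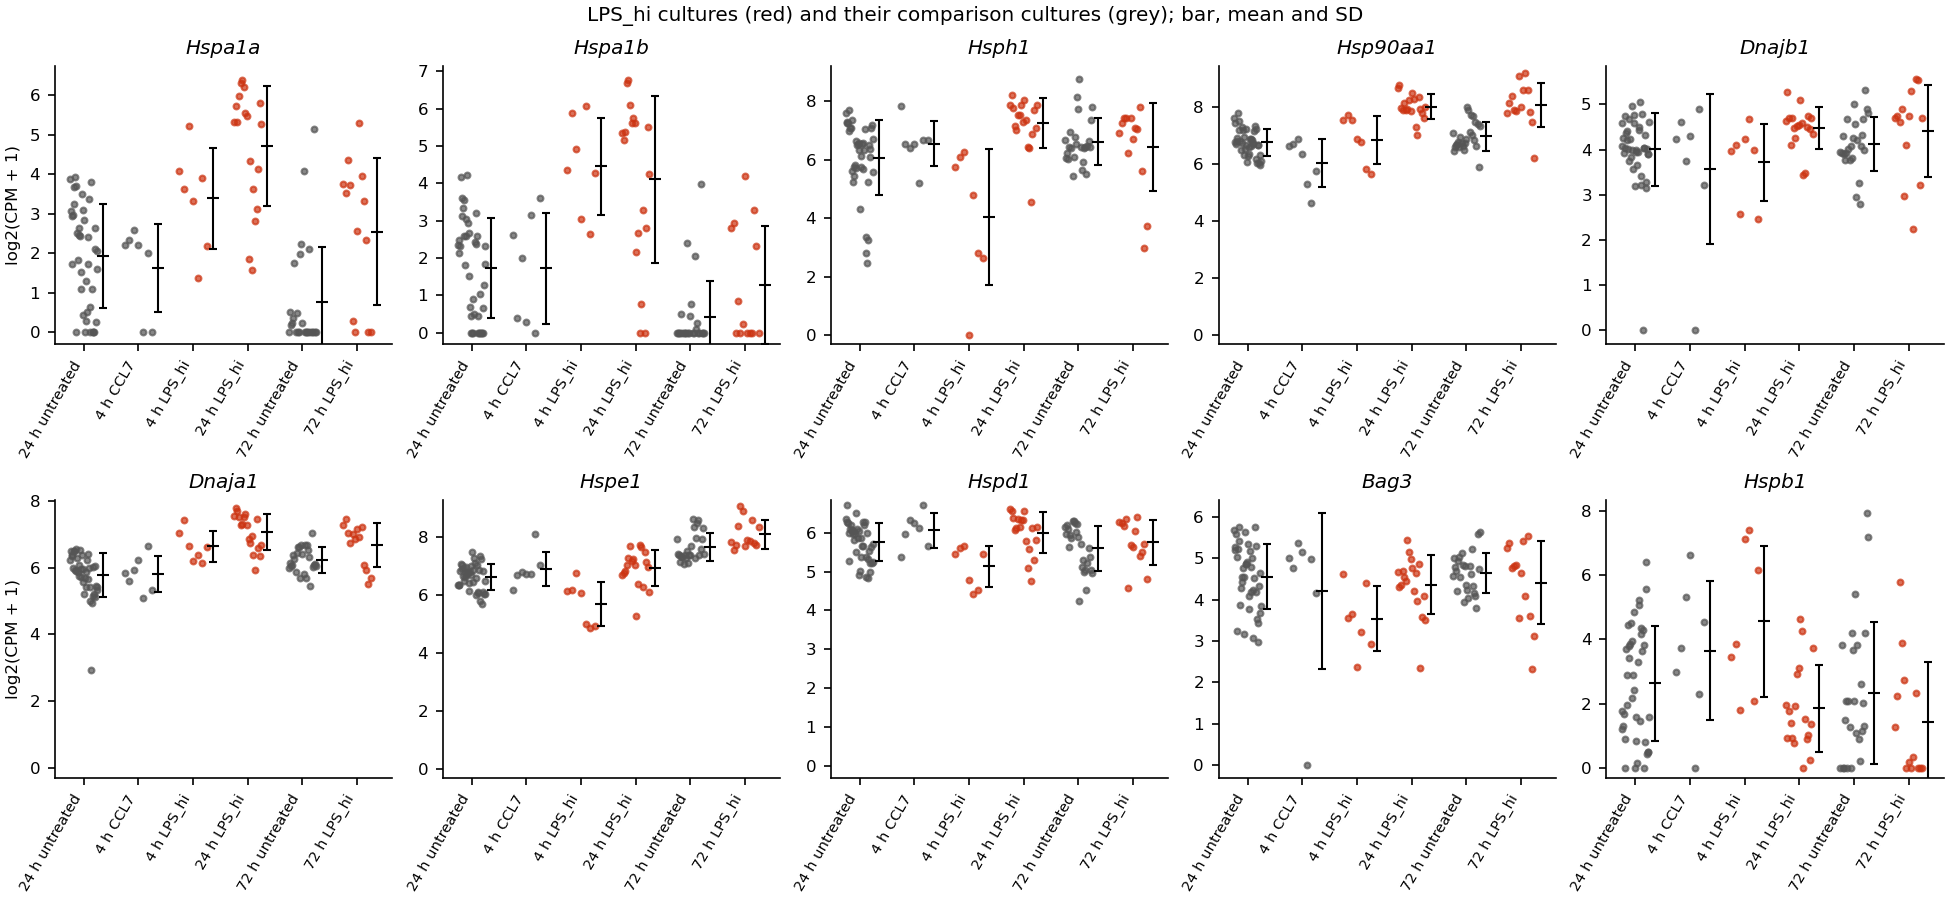
Level of each member, as log2(CPM + 1), in every LPS_hi culture (red) at 4, 24 and 72 h and in the untreated or CCL7 cultures it was compared with (grey); the bar is the mean and SD. At 24 h Hsp90aa1 and Dnaja1 sit above the untreated median in 18 of 18 cultures, whereas Hsph1 is lower at 4 h and higher at 24 h.

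The order of the conditions by mean log2 level placed different agents at the top for different members. At 24 h the 3 highest means of Hspa1a were with MPP, dopamine and LPS_hi and the 3 lowest with resveratrol, interferon alpha and GMCSF (0.608 CPM). For Hspa1b they were TNFa, MPP and LPS_hi at the top and GMCSF, interferon alpha and Valproic Acid (0.294 CPM) at the bottom. Hsph1 was highest with IL4, CRH (corticotropin releasing hormone, 184.4 CPM) and LPS_hi and lowest with P3C (69.4 CPM), OA (oleic acid) and AEA (anandamide). Hsp90aa1 had P3C, LPS_hi and LPS_lo with resveratrol at the top and IFNb, interferon alpha and HDL (66.2 CPM) at the bottom. Interferon alpha was among the 3 lowest 24 h conditions for 5 members, namely Hspa1a, Hspa1b, Hsp90aa1, Dnajb1 and Hspd1. These orders are of means not adjusted for plate, and of the 5 only Hspd1 was called with interferon alpha at 24 h. The interferon alpha cultures were on plates D and H. Plate H had the lowest untreated 24 h means of Hspa1a, Hspa1b, Dnajb1 and Hspd1. The part of plate in these orders was not tested.

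Dnajb1 was highest with LPS_hi (22.2 CPM), IFNg and LPS_hi with GABA and lowest with LPS_lo with rapamycin, interferon alpha and ATP (12.7 CPM), and Hspd1 was highest with IL4, MPP and GMCSF and lowest with LPS_lo with rapamycin, IC and interferon alpha. Dnaja1 had LPS_hi, LPS_lo and LPS_hi with minocycline at the top and nicotine, HDL and Valproic Acid (38.4 CPM) at the bottom. Hspe1 was highest with GMCSF, MPP and IL13 and lowest with substance P, IFNb and IC (67.2 CPM). Bag3 was highest with PA (palmitic acid), ATP and TGFb (37.8 CPM) and lowest with LPS_lo with CCL2, LPS_hi with minocycline and Valproic Acid. Hspb1 had Valproic Acid, MPP and glutamate at the top and LPS_hi, IFNg and P3C (3.46 CPM) at the bottom. Except for Valproic Acid over MPP in Hspb1, no neighbours in these 10 orders differed by more than their pooled SD.

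At 72 h the mean levels ran as follows. Hspa1a was highest with interferon alpha, LPS_lo with eotaxin and LPS_lo and lowest with TGFb, PA and TNFa, and Hspa1b was highest with TNFa with IFNg, IFNg and LPS_lo with IC and was listed at 0 in every culture given MPP, TNFa or PA. Hsph1 was highest with the mix of TNFa, P3C, PGE2 and IFNb (228.2 CPM), IL4 and HDL and lowest with TNFa, GABA and LPS_lo with IL10. Hsp90aa1 was highest with TNFa with P3C, LPS_hi and the same mix and lowest with IFNb, TGFb and MPP. Dnajb1 was highest with TNFa, interferon alpha and LPS_lo with IC and lowest with LPS_lo with IL10, TNFa with P3C and PGE2, and PGE2 (12 CPM). Dnaja1 had LPS_lo with eotaxin (145.2 CPM), the mix and IFNb at the top and OA, MPP and TNFa at the bottom. Hspe1 was highest with IL13 (334 CPM), GMCSF and LPS_hi and lowest with TGFb, CRH and TNFa (106.7 CPM). Hspd1 had GMCSF, IL4 and PA at the top and PGE2, IFNg and TNFa at the bottom. Bag3 was highest with IL4, IFNb and interferon alpha and lowest with TNFa, eotaxin and MPP (10.1 CPM), and Hspb1 was highest with IL4, IL10 and IL13 together, with LPS_lo and these 3, and with interferon alpha, and lowest with TNFa with IFNg, P3C with PGE2, and TNFa. In these 10 orders of 42 neighbouring pairs each, 3 pairs differed by more than their pooled SD: TNFa over interferon alpha in Dnajb1, OA over MPP in Dnaja1 and GMCSF over IL4 in Hspd1.

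At 4 h, with 9 conditions, the mixes with LPS_hi took the top of the HSP70 orders. Hspa1a was highest with LPS_hi with ATP, with nicotine and with norepinephrine and lowest with CCL2, CCL7 and nicotine (2.30 CPM). Hspa1b was highest with LPS_hi with nicotine, LPS_hi, and LPS_hi with norepinephrine and lowest with ATP, CCL7 and norepinephrine. Dnaja1 had LPS_hi with nicotine, LPS_hi with norepinephrine and LPS_hi at the top and CCL7, ATP and norepinephrine at the bottom. Hspb1 had LPS_hi with ATP, LPS_hi, and LPS_hi with nicotine at the top and CCL2, ATP and nicotine (9.16 CPM) at the bottom. Hsph1, Hspe1, Hspd1 and Bag3 ran differently. Hsph1 was highest with CCL2, norepinephrine and ATP and lowest with LPS_hi with ATP, LPS_hi with nicotine, and LPS_hi. Hspe1 and Bag3 were both highest with ATP (144 and 33.6 CPM), followed by CCL7 and CCL2 for Hspe1 and by CCL2 and CCL7 for Bag3. The lowest were norepinephrine, LPS_hi, and LPS_hi with norepinephrine for Hspe1, and nicotine, LPS_hi with nicotine, and LPS_hi with norepinephrine for Bag3. Hspd1 was highest with CCL7, CCL2 and ATP and lowest with nicotine, norepinephrine, and LPS_hi with ATP (28.4 CPM). Hsp90aa1 was highest with ATP (178.5 CPM), LPS_hi with ATP, and LPS_hi with nicotine and lowest with CCL2, LPS_hi with norepinephrine, and CCL7. Dnajb1 was highest with LPS_hi with ATP (32.4 CPM), ATP, and LPS_hi with nicotine and lowest with CCL7, LPS_hi with norepinephrine, and nicotine.

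Several further calls of the members against untreated cultures were lost with plate in the fit. At 24 h these were Hspa1b with dopamine (2.25), IL4 (2.14) and IL13 (1.76), Hspa1a with IL4 (1.53), and Hsp90aa1 and Dnaja1 with IFNg (0.62 and 0.64) and IL4 (0.65 and 0.66). Hsp90aa1 was also called lower with HDL (-0.85). For the chaperonin subunits they were Hspe1 with LPS_lo with resveratrol (0.62) and IC (-0.61), and Hspd1 with MPP (0.74), LPS_lo with rapamycin (-0.70) and IFNb (-0.62). Bag3 with Valproic Acid was at -1.62 (adjusted p = 4.48e-04), and at -1.66 with plate (adjusted p = 0.0614). Bag3 with MPP at 72 h (-1.26) and Hspd1 with LPS_hi at 4 h (-0.62) were lost as well. Those also called with plate were Hspa1b with MPP at 24 h (2.62, and 1.40 with plate, lost with pool), Hsp90aa1 with the mix of TNFa, P3C, PGE2 and IFNb at 72 h (0.96), and Dnaja1 with TNFa and P3C at 72 h (-0.62, lost with pool). At 4 h they were Hspa1b with LPS_hi (2.73) and with LPS_hi and norepinephrine (1.38), and Hspd1 with LPS_hi and ATP (-0.94) and with norepinephrine (-0.72).

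Whether the effect of a stimulus differed between 24 and 72 h was tested for 3 stimuli, LPS_hi, IFNg and P3C. Of 30 pairs of a member and a stimulus 2 passed at an adjusted p under 0.05, both with a smaller or more negative effect at 72 h, against 6.9% of all gene and stimulus pairs. The LPS_hi effect on Dnaja1 was 0.84 lower at 72 h (log2 difference -0.84, SE 0.25, adjusted p = 0.0167), and -0.55 with plate in the fit (adjusted p = 0.122). For interferon gamma and Hspd1 the difference was -1.19 (SE 0.33, adjusted p = 0.0139) and -1.06 with plate (adjusted p = 0.00722). With plate in the fit the IFNg effect on the inducible pair also differed, and in the opposite direction, larger at 72 h by 2.60 for Hspa1a (adjusted p = 0.0168) and by 2.35 for Hspa1b (adjusted p = 0.0122), against 1.90 and 1.16 without plate, which did not pass. Both were also called with pool. The P3C effect on Hsp90aa1 was lower at 72 h only with plate in the fit (-1.02, adjusted p = 0.0134). Except for 4 Valproic Acid cultures of 24 h on plate E, the cultures of 24 and 72 h were on different plates. All plates with 72 h cultures were of lot May16, whereas the 24 h plates A, B, C, D and G were of other lots. Time and lot cannot be fully told apart in these differences, also with plate in the fit.

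In mice, Hspa1a did not overlap between the LPS and PBS groups, and no other member was called. It was at 6.04, 5.09, 6.09 and 8.35 CPM in the 4 LPS mice and at 0.589, 0.332, 0.791 and 0.145 CPM in the 4 PBS mice, so the groups did not overlap. The log2 fold change was 2.34 (SE 0.36, 95% interval 1.63 to 3.05, adjusted p = 3.05e-04). Hspa1a passed the filter on low values only through the LPS group, so among the genes that passed it had to differ, and this value is a description. With no filter its adjusted p was 5.02e-04. In the naive mice of the second experiment Hspa1a was at 21.6 ± 23.3 CPM at 2 months (n = 11, lowest 1.65, median 10.0, highest 74.9). At 22 months it was at 8.87 ± 6.55 CPM (n = 13, lowest 1.35, median 9.63, highest 23.7). The level of the LPS mice was thus within the range of mice given no LPS, and the 2 experiments were not tested against each other. Of 9012 genes tested 18.1% were called, 697 higher and 932 lower. Hsp90aa1 was at 143.7, 107.3, 76.8 and 121.7 CPM against 69.3, 89.6, 54.6 and 84.4, with 0.58 (adjusted p = 0.0528), which did not pass. Hspa1b, at 3.47, 3.27, 0.381 and 1.39 CPM against 0, 1.30, 0.396 and 3.04, was under the filter and was not tested, as was Hspb1. The other 6 had log2 fold changes from -0.35 (Hsph1) to 0.25 (Dnajb1). An exact rank-sum test of 4 against 4 cannot go below p = 0.029, and after adjustment it called no member.

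Other signals also differed between the LPS and PBS mice. The summed level of 12 immediate early genes, which also respond to cell dissociation, was 7751 to 10776 CPM in the LPS mice and 860 to 935 in the PBS mice, and 10 of the 11 tested were called higher. Neutrophil markers summed to 179 to 328 CPM against 81.8 to 149. Median sums were 79.8 against 39.3 CPM for monocyte markers, 401 against 886 for oligodendrocyte markers and 24.7 against 48.2 for neuron markers. Microglial Sall1 had a median of 94.6 against 261 CPM. Erythrocyte markers had similar medians, 420 against 387 CPM, but reached 17299 CPM in 1 LPS mouse, against 130.0 to 693 in the PBS mice. Their part in the Hspa1a value was not tested.

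Between 2 and 22 months none of the 10 members was called, where 3.97% of 9632 genes were (329 higher, 53 lower). At an unadjusted p under 0.05, 4 members were lower (Hspa1b, Dnaja1, Hspe1 and Bag3) and none higher, against 23.2% of all genes (2239 of 9632). Dnaja1 was at 85.9 ± 24.98 CPM in 2-month mice (n = 11, lowest 55.5, median 80.4, highest 132.8) and 61.2 ± 20.3 in 22-month mice (n = 13, lowest 34.4, median 63.3, highest 111.4). Its log2 fold change of -0.49 (SE 0.16, adjusted p = 0.0404) was below the 1.5-fold minimum. Neutrophil markers summed to 150.3 to 1213 CPM in 2-month and 322 to 4045 in 22-month mice, and their part was not tested. In the first library batch the means of Dnaja1 were 80.3 ± 29.1 and 71.7 ± 29.5 CPM, and in the second 89.0 ± 24.2 and 56.5 ± 14.5. Library batch itself went with large differences in 2-month mice, with Hsp90aa1 at 205.9 ± 34.3 CPM in the first and 91.0 ± 34.3 in the second, and Hspa1b at 27.05 ± 16.05 and 8.17 ± 9.31.

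**Figure D4:**
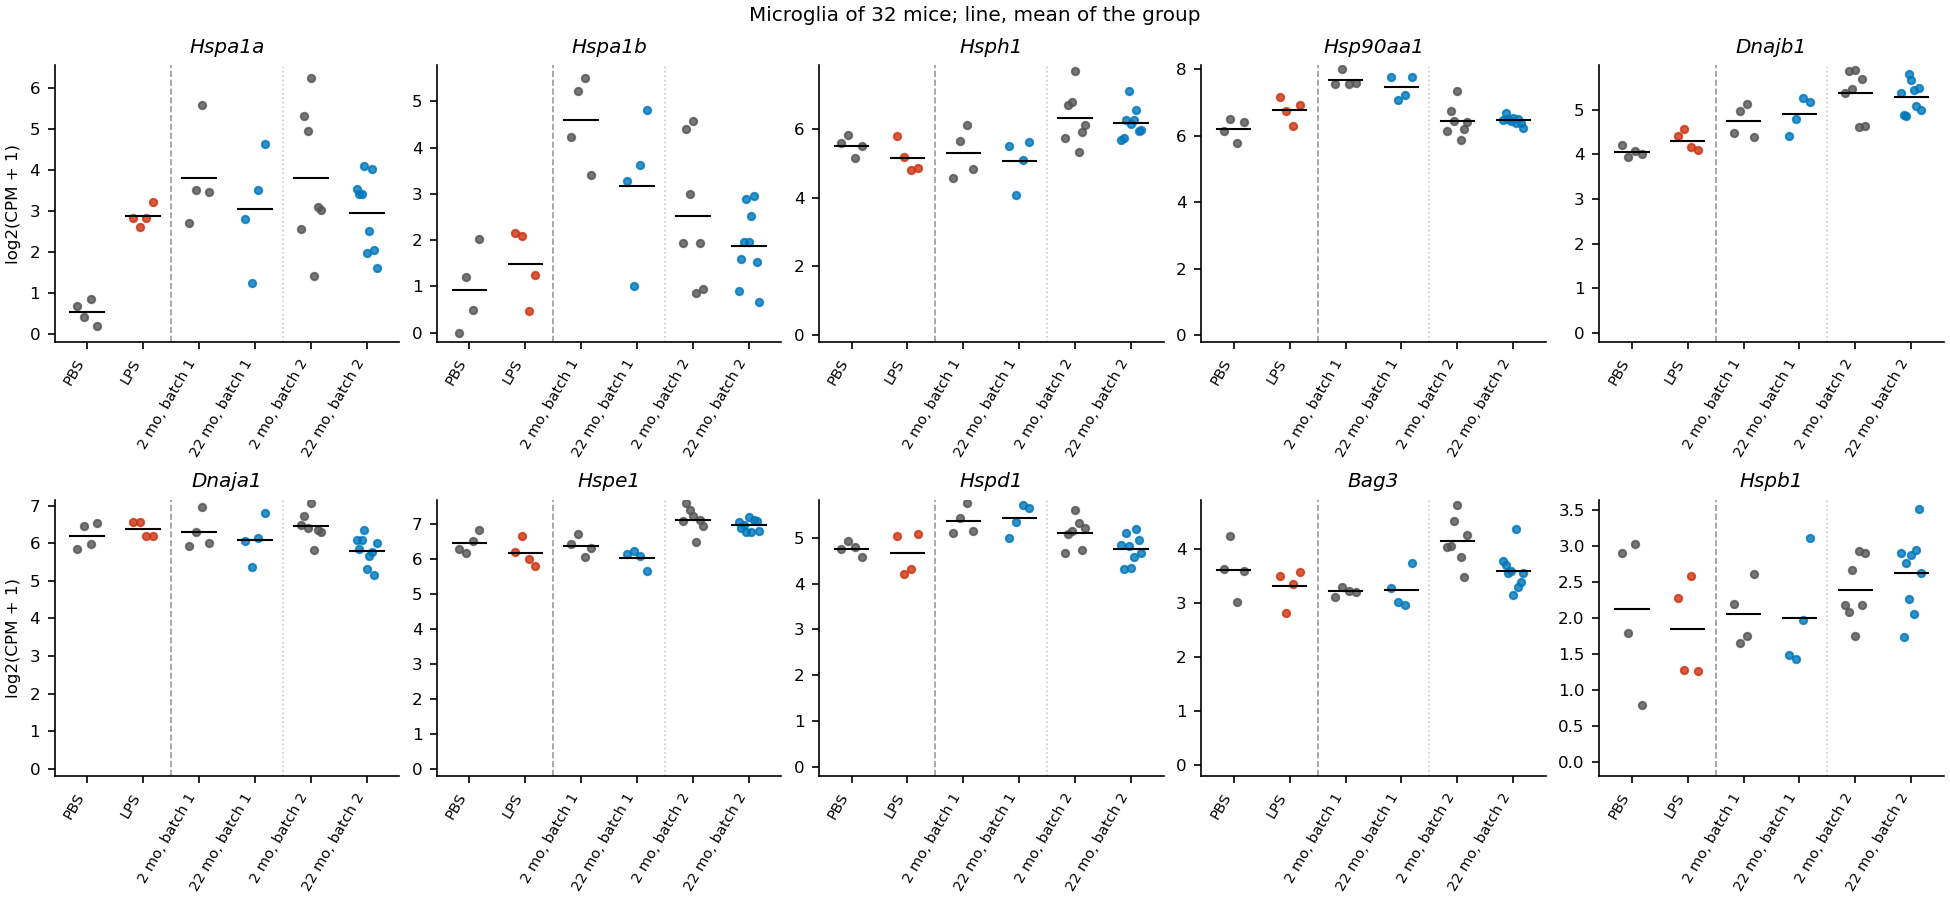
Level of each member, as log2(CPM + 1), in microglia of each of the 32 mice, by treatment, age and library batch, with the group mean as a line. Hspa1a is between 5.09 and 8.35 CPM in the LPS mice and between 0.145 and 0.791 in the PBS mice, and Hsp90aa1 is higher in the first library batch than in the second.

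Over the 97 condition means of the cultures the median Pearson's r over the 45 pairs of members was 0.15. It was 0.30 over the conditions of 24 h, 0.23 over those of 72 h and 0.046 over the 40 untreated 24 h cultures once plate means were removed. Hspa1a and Hspa1b had r = 0.81 over conditions and 0.03 within untreated plates. Hspe1 had a negative r with Hspa1b (-0.60) and with Hspb1 (-0.56) over all conditions, but it was -0.02 and 0.07 over those of 24 h and 0.24 and 0.0031 over those of 72 h. Within untreated plates the highest r was that of Dnajb1 and Dnaja1, 0.69, which was 0.13 without the 1 culture with Dnajb1 at 0. Hsph1 and Dnaja1 had 0.66, and 0.58 without that culture. Condition means share time, plates, lots and depth, so these are descriptions with no test.

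**Figure D5:**
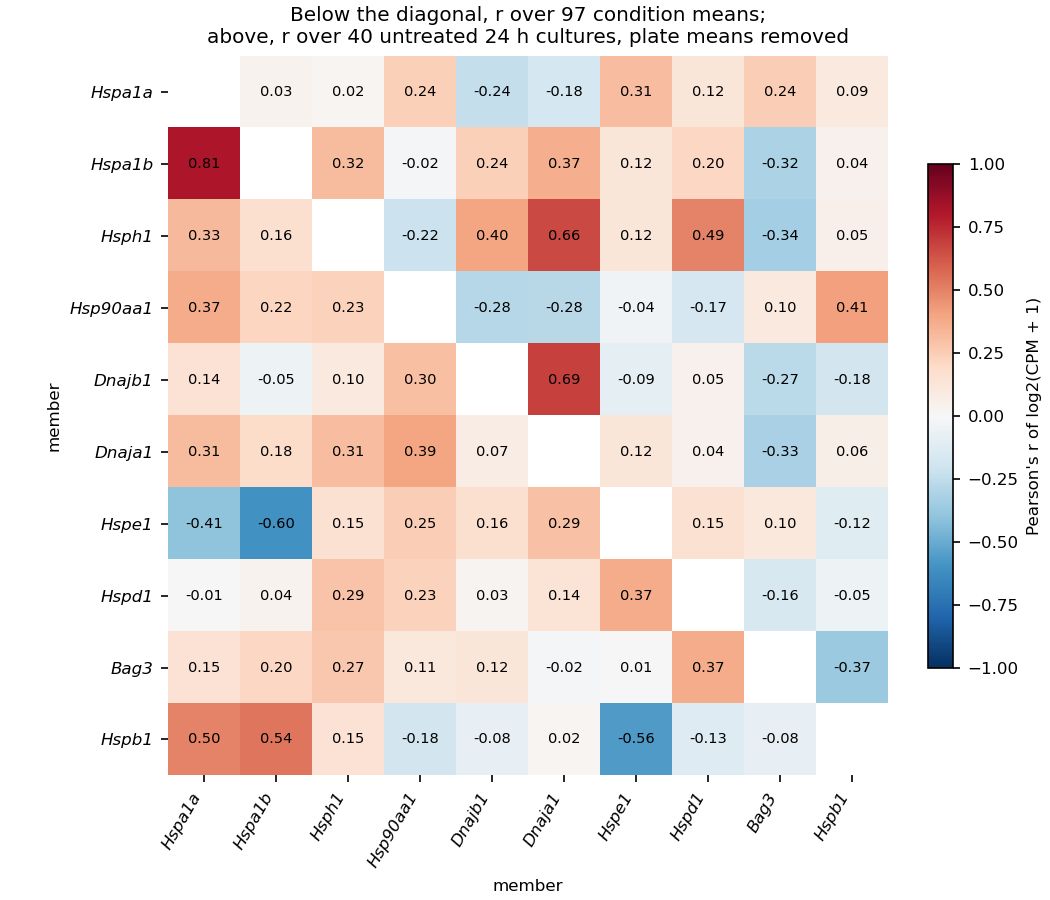
Pearson's r between members of log2(CPM + 1), below the diagonal over 97 condition means and above it over 40 untreated 24 h cultures with plate means removed. The pair Hspa1a and Hspa1b has 0.81 below the diagonal and 0.03 above it.

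Among 9384 genes over the same 97 condition means, the 3 patterns most like each member's were as follows. These r take the conditions of all times together, and likeness within a time was not computed. Shared time, plate or lot can therefore enter them, and no test was made. For Hspa1a they were Hspa1b (r = 0.81), Ppp1r15a (0.73), which encodes a phosphatase subunit of the integrated stress response, and Tiparp (0.70). For its copy Hspa1b they were Gm26584 (0.84), Ifi202b (0.84) and Gm1821 (0.82). Hsph1 had Ube2r2 (0.59), Papd5 (0.57) and Pttg1ip (0.56). Hsp90aa1 had the proteasome subunit gene Psmd11 (0.68), the glucose transporter gene Slc2a1 (0.67) and Arl1 (0.66). The J-domain genes differed, with Ltv1 (0.46), Ndufaf2 (0.42) and Mbd2 (0.40) for Dnajb1 and Gm10053 (0.76), Cept1 (0.75) and Aida (0.73) for Dnaja1. Hspe1 had the respiratory chain gene Uqcrb (0.84), Gm13251 (0.82) and the ubiquitin gene Ubb (0.82), and Hspd1 had Anp32b (0.75), Slc25a24 (0.69) and Mthfd1 (0.69). Bag3 had Lactb (0.69), Naa50 (0.66) and Arid4a (0.66). Hspb1 had the growth factor gene Csf1 (0.74), Tcirg1 (0.70) and Igsf8 (0.68).

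Other chaperone genes, counted without the members, moved in both directions with LPS_hi at 24 h. Of all genes tested 26.8% were called in that comparison, 7.89% higher and 18.9% lower. Of 30 cytosolic chaperones and co-chaperones 4 were called higher and 5 lower, with Cacybp at 1.04 and the Bag family genes Bag4, Bag2 and Bag6 at -1.49, -1.48 and -1.10, and the median over the list was -0.05. Of 4 other small heat shock genes 3 were lower: Hspb6 (-1.64), Cryab (-1.29) and Hspb7 (-0.62). None of the 3 genes for HSF1, HSF2 and their binding protein (Hsf1, Hsf2 and Hsbp1) was called, nor was any of 8 subunits of the cytosolic chaperonin TRiC, of which 2 were called higher with plate in the fit. Of 15 chaperones of the endoplasmic reticulum (ER) 2 were higher, Manf (0.98) and Hspa5 (0.84), and 2 lower, but with plate in the fit only 1 was higher and 1 lower. Of 9 mitochondrial chaperones and proteases 1 was lower. Of 6 genes for ubiquitin and autophagy of misfolded protein 2 were higher (Ubb 0.90, Sqstm1 0.61) and 1 lower, and with plate 1 was higher and 1 lower. Of 8 oxidative stress genes 3 were higher and 2 lower (3 and 1 with plate), with the cystine transporter gene Slc7a11 at 2.36.

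GMCSF at 72 h, in which Hspd1 rose, had 8 of 15 ER chaperones higher and none lower, with Pdia4 at 2.54, Pdia6 at 1.61, Sdf2l1 at 1.53 and Hspa5 at 1.52, and a list median of 0.90. Of all genes 5.4% were called there, 3.81% higher and 1.59% lower. At 24 h of GMCSF 5 of the 15 were higher, and 4 with plate in the fit, where 2.84% of all genes were called without plate. MPP at 24 h, with the highest mean log2 level of Hspa1a, had 2 of 9 mitochondrial chaperones and proteases higher, among them Hspa9, the mitochondrial HSP70, at 1.21 (adjusted p = 2.57e-10). It had 1 of 30 cytosolic genes higher and 1 lower, Hspa8, the constitutive HSP70, at -1.60, and both calls were lost with plate in the fit. Of all genes 7% were called with MPP at 24 h. At 4 h of LPS_hi against CCL7, 3 of 30 cytosolic genes were higher, with Dnajb6 at 1.40 and Dnaja2 at 1.37, and 2 lower, where 20.7% of all genes were called. In LPS mice 1 of 24 cytosolic genes was higher, Fkbp5 at 1.37, and 2 lower, Cacybp at -0.89 and St13 at -0.71. None of 15 ER chaperones was called, where 18.1% of all genes were.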

How the data were processed

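Microglia from mouse cultures and mice were profiled by pooled 3′ RNA-seq: cells were lysed, RNA was reverse transcribed with barcoded primers, 48 to 96 cDNAs were pooled and amplified with T7 polymerase. The authors quantified reads with Salmon 0.7.1 per the labels, which name build mm8, while the methods name Ensembl 81, and deposited 1 table each for cultures and mice. The deposited values are CPM per gene, which the methods call TPM. The authors left out shallow libraries.

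From there, log2(CPM + 1) was fitted with limma 3.58.1 (R 4.3.3), with a trend and Benjamini-Hochberg adjustment over all genes over 5 CPM in at least 4 samples (11 for aging). The culture comparisons used 16935 genes and one fit over 783 cultures without a plate term, repeated with plate or pool as a term; the aging comparison had library batch as a term. One culture labelled LPS_hi with the lower dose was left out. Low values were not whole reads throughout (tolerance 0.1), so no count test was used and the depths are estimates. Tables and figures used Python 3.11.15, numpy 2.4.6, pandas 2.3.3 and matplotlib 3.10.9. The fit was tested on simulated data. For each member the text names the conditions with the 3 highest and 3 lowest means, those called against untreated cultures (the largest changes first, up to 6 for a time) and the 3 genes most like it over conditions with a mean of at least 5 CPM. The members, gene lists and comparisons were chosen with earlier results of these data known. Groups follow the labels. Alternatives were another pseudocount, filter, centring, minimum fold, depth, plate or pool term, rank-sum test and each replicate left out.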

Additional observations from a re-analysis of the deposited data

Results flagged for a closer look

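Of 99 groups of 4 to 10 samples tested for a sample far from the rest, where chance gives about 1 in 20, 8 had one. Hsp90aa1 was at 115.2 CPM in 1 culture of 24 h LPS_lo (others 188 to 246.4) and at 104.3 CPM in 1 culture of 72 h MPP (others 45.7 to 61.8). Hspa1a was at 5.19 CPM in 1 culture of 4 h LPS_hi with nicotine (others 14.4 to 32.3). Hspb1 was at 0.629 CPM in 1 culture of 72 h P3C with PGE2 (others 0 to 0.118) and at 1.49 CPM in 1 of 72 h TNFa with IFNg (others 0 to 0.395). Hspe1 was at 380.9 CPM in 1 culture of 24 h GMCSF (others 138.5 to 203), at 50.3 CPM in 1 of 24 h LPS_lo with resveratrol (others 141.2 to 221.7) and at 5.27 CPM in 1 of 4 h LPS_hi with norepinephrine (others 49.0 to 114).

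The effect of a stimulus differed between 72 and 24 h, by the test of the difference in limma with Benjamini-Hochberg adjustment, for Dnaja1 with LPS_hi (-0.84, adjusted p = 0.0167; -0.55 with plate and -0.44 with pool in the fit, adjusted p = 0.122 and 0.203) and for Hspd1 with IFNg (-1.19, adjusted p = 0.0139). Time, plate and lot cannot be fully told apart in these differences.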

How the results depend on the processing

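No paired analysis was possible because the labels give no replicate numbers. Of 139 calls, 130 were followed, with at most 6 for a member and time against untreated cultures. Of these, 49 were made under every alternative that kept all replicates and 81 were lost under at least 1. With a minimum log2 fold change of 1, the 45 calls at 24 h became 26, the 28 at 4 h 17 and the 6 of 4 h LPS_hi against CCL7 3. The 32 calls at 72 h became 54 with pool in the fit, 21 with each time point fitted apart and 19 by rank-sum. By rank-sum, 4 h LPS_hi against CCL7 had 1, 72 h LPS_hi 1 instead of 2, the combinations 4 instead of 7 and LPS mice 0 instead of 1. The combinations had 13 with plate, 17 with pool and 15 with a pseudocount of 5. With plate or that pseudocount, the differences of effects had 4 instead of 2 and 72 against 24 h untreated 1 instead of 3. Aging had 1 instead of 0 with no minimum fold and in the second batch alone. Leaving out 1 replicate gave 4 to 6 calls for 4 h LPS_hi against CCL7, 1 to 2 for LPS mice (2, with Hsp90aa1, without PBS replicate 2 or LPS replicate 3), 0 to 0 for aging and 3 to 5 for the conditions of 3 to 5 cultures (3 without 72 h TNFa replicate 1). Hspe1 in 72 h TNFa turned to 0.18 without cultures under 2 M mapped reads. Leaving out the 72 h TNFa cultures was chosen after seeing the data. Depth limits Hspa1a, Hspa1b and Hspb1, which are at 0 in many cultures.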
